A study of Mus musculus with 2 samples.

Results

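Pi16-positive fibro-adipogenic progenitors of uninjured mouse muscle were taken as the barcodes of the uninjured library that had at least 200 detected genes, at most 20% mitochondrial transcripts, at least 5 UMIs of Dcn, at least 2 UMIs of Pi16 and none of Tnmd, Pecam1 or Ptprc. A UMI (unique molecular identifier) marks 1 captured transcript. The rule found 342 cells among the 5581 barcodes of the uninjured library, and the 2 libraries together held 10070 barcodes. The cells were therefore chosen on their Pi16 and Dcn counts. Levels of these 2 genes, and the absence of the tendon gene Tnmd, the endothelial gene Pecam1 and the leukocyte gene Ptprc, are a description of the choice.

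The series holds 2 droplet single-cell RNA libraries (10x Genomics 3' chemistry, version 2) from the tibialis anterior, the front muscle of the lower leg, of C57B/6 mice aged 12 weeks on standard chow, dissociated with muscle proteases. One library is labelled as the uninjured control. The other is labelled as injured, 1 day after injection, and its muscle had received 1.2% barium chloride, a salt that kills muscle fibres, by intramuscular injection 24 hours before it was taken. The labels describe the injection for both samples and do not say whether the control muscle received any injection. Neither the number of animals behind each library nor pooling is given in the labels. With 1 library per condition no test between conditions is possible, so differences are given by size with 95% intervals that cover counting error only.

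Fibro-adipogenic progenitors are the Pdgfra-positive mesenchymal cells of the muscle interstitium, which deposit matrix and can give rise to adipocytes and fibroblasts. In many tissues a fibroblast population marked by Pi16, Dpp4 and Cd248 lies in the adventitia of larger vessels and in fascia, while cells rich in Col15a1, Smoc2 and Cxcl14 lie closer to the parenchyma. PI16 is a secreted or membrane-anchored protein of the CAP family named as a peptidase inhibitor, DPP4 is a cell-surface dipeptidyl peptidase, CD248 (endosialin) is a stromal membrane glycoprotein, and MFAP5 is a glycoprotein of elastic microfibrils. SMPD3 is a neutral sphingomyelinase that releases ceramide from sphingomyelin, and MRGPRG belongs to a family of orphan receptors best known from sensory neurons.

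The libraries held 22994502 UMIs (uninjured) and 39014762 UMIs (injured), and the median barcode that passed the gene and mitochondrial filters held 3198 and 7335 UMIs. Of 5581 uninjured barcodes 5385 passed these filters, and of 4489 injured barcodes 4421 passed. The uninjured library held 17744 UMIs of Xist and 0 of Y-linked genes, and the injured library 0 and 4698, so sex and injury cannot be told apart. The libraries shared 33 barcode sequences, of which 1 was among the Pi16-positive cells and 0 matched an injured cell that passed the Dcn, Tnmd, Pecam1 and Ptprc criteria.

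In GRCm38 coordinates (GENCODE M21 gene models) Pi16 lies at chr17:29317680-29330593 on the plus strand, Cd248 at chr19:5068078-5070682 and Mfap5 at chr6:122505845-122529290, both plus. Mrgprg lies at chr7:143763710-143766993, Dpp4 at chr2:62330073-62412231 and Smpd3 at chr8:106252548-106337988, all on the minus strand. The RefSeq promoter table of GRCm38.p6 held entries for Pi16, Mrgprg and Dpp4 and none matched for Smpd3, Cd248 or Mfap5. The 250 bases before the RefSeq start of these 3 genes are shown because Pi16 defines the cells and Mrgprg and Dpp4 are marker genes that stood higher in them. Each reads 5′ to 3′ on the gene's strand, and capitals mark a TATAAA box on the gene's strand or a GGAATG motif (TEAD type, searched on both strands, CATTCC on the reverse).
Pi16, chr17:29318632-29318881, plus strand: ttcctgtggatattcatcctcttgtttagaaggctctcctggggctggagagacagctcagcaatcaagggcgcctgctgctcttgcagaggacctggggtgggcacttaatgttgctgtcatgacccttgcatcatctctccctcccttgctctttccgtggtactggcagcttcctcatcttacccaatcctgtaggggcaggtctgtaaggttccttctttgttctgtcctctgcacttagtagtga
Mrgprg, chr7:143766994-143767243, minus strand: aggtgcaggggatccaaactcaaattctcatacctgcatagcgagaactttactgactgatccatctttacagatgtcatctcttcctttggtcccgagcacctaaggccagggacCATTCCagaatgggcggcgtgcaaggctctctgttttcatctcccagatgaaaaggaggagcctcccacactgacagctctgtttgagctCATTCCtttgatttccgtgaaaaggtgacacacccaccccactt
Dpp4, chr2:62412232-62412481, minus strand: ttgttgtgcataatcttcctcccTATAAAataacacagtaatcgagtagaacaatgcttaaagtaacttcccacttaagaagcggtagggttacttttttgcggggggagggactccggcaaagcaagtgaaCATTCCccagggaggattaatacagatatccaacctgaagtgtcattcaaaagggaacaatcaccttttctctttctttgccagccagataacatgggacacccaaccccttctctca
No searched motif was found in the Pi16 window, whose GC content was 52.4%. That window lies inside the GENCODE span of Pi16 given above, since the RefSeq start used here lies downstream of the GENCODE start. The Mrgprg window held 2 GGAATG matches, and the Dpp4 window held 1 GGAATG and 1 TATAAA match. TGANTCA (the AP-1 motif, both strands) was in none of them. Among 32851 promoter windows of the same length, 12.6% held GGAATG, 7.59% held TATAAA and 6.75% held TGANTCA. The matches are letters in these windows and not measured binding.

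Pi16-positive cells were sparse and varied widely in the gene that chose them. They made up 6.35% (5.71 to 7.04%, exact Clopper-Pearson) of the 5385 filtered barcodes. Of these, 1379 had at least 5 Dcn UMIs, 786 also had no Tnmd, 679 no Pecam1 and 674 no Ptprc, and 342 of the 674 had at least 2 Pi16 UMIs. Pi16 ranged from 2 to 92 UMIs per cell with a median of 9. On either side of the threshold, 249 of the 674 cells had 0 Pi16 UMIs, 83 had 1, 58 had 2, 23 had 3 and 30 had 4. The cells held 1439865 UMIs in all, between 1846 and 13132 per cell with a median of 4025, and a median of 1572 genes. The Pi16-zero cells held a median of 3400 UMIs, so depth was not equal on the 2 sides of the threshold. With every barcode first thinned to 1500 UMIs the same rule found 259 cells, or 4.81% (4.25 to 5.42%) of the filtered barcodes. All UMI criteria were then read from thinned counts, and 751 cells rather than 674 passed those other than Pi16. The 259 cells need not all be among the 342.

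Of the other marker genes, Cd248 and Mfap5 were found in most Pi16-positive cells, and Smpd3, Mrgprg and Dpp4 in 50% of them or fewer. Cd248 had a UMI in 77.5% of the Pi16-positive cells and Mfap5 in 97.7%. Smpd3 was detected in 171 of them, Mrgprg in 143 (41.8%) and Dpp4 in 26.6%. The Pi16-zero cells had a UMI of these genes in 31.7% (Cd248), 82.3% (Mfap5), 3.21% (Smpd3), 0.402% (Mrgprg) and 9.64% (Dpp4) of cells. Endothelial cells, which serve as a measure of free RNA, were 1556 barcodes with a median of 3822.5 UMIs. They had at least 3 Pecam1 and 1 Cdh5 UMIs, fewer than 5 of Dcn and none of Tnmd or Ptprc. The limit on Dcn left out the barcodes with the most Dcn RNA, so the measure can be too low for fibroblast transcripts. In these endothelial cells the shares were 1.74%, 3.86%, 1.41%, 0.643% and 0.0643%. After thinning to 1500 UMIs the shares in the Pi16-positive cells were 54.7% for Cd248, 90.4% for Mfap5, 43.6% for Smpd3, 35.7% for Mrgprg and 10.2% for Dpp4. Of the 5 markers other than Pi16, 47 Pi16-positive cells had all 5, 87 had 4, 63 had 3, 90 had 2, 52 had 1 and 3 had none. Among the 249 Pi16-zero cells 0 had all 5 and 2 had 4.

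Of 13 general markers of fibro-adipogenic progenitors 12 were detected in the Pi16-positive cells, with Tcf21 at 0. Pdgfra, Ly6a and Cd34 were also found in other groups. Pdgfra, the receptor that defines these progenitors, had a UMI in 55.8% of the Pi16-positive cells, in 63.9% of the Pi16-zero cells and in 0.450% of the endothelial cells. Ly6a (Sca-1) had a UMI in 96.5% and Cd34 in 92.4% of the Pi16-positive cells, but endothelial cells also carried both, in 96.8% and 75.8% of cells. Outside the mitochondrial and ribosomal protein genes, the most abundant transcripts of the cells after the nuclear RNA Malat1 were Gsn (gelsolin, an actin-severing protein also secreted by fibroblasts), Dcn, Sparc, Col3a1, S100a6, Fth1, Igfbp6, Tmsb4x and Fn1. Gsn stood at 33094 and Fn1 (fibronectin) at 4193 UMIs per 1000000 UMIs of the cells, the unit of every level below (CPM). Of 8 satellite cell genes 5 were detected (128 CPM in sum), with Pax7, Calcr and Cdh15 at 0. Of 6 mesothelial genes 2 were detected (21.5 CPM in sum), with Upk3b, Lrrn4, Wt1 and Muc16 at 0, and the 11 UMIs of Msln lay in 1 cell.

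Several marker and secreted protein genes stood higher in cells with more Pi16 UMIs. The cells are split here into bands of 0 (249 cells), 1 (83), 2 to 4 (111), 5 to 9 (69) and 10 or more (162) Pi16 UMIs, with median depths of 3400, 3977, 4228, 3268 and 3823.5 UMIs. Mrgprg stood at 0.987, 20.2, 73.6, 591 and 1308 CPM in these bands. Smpd3 stood at 10.9, 14.5, 156, 947 and 1639.7 CPM. The 1-UMI band just outside the threshold was thus close to the Pi16-zero band for Smpd3, and the 2-to-4 band just inside it was far below the highest band for both genes. Fn1 stood in order at 485, 650.27, 1247, 3965 and 6280.35 CPM, and Cd248 at 150, 263, 313, 473 and 853 CPM. Dpp4 had no such order at low counts, with 27.6, 52.0, 23.1, 68.2 and 146 CPM. C3, the central complement component, stood at 218, 413, 608, 1064 and 1909.7 CPM.

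**Figure D1:**
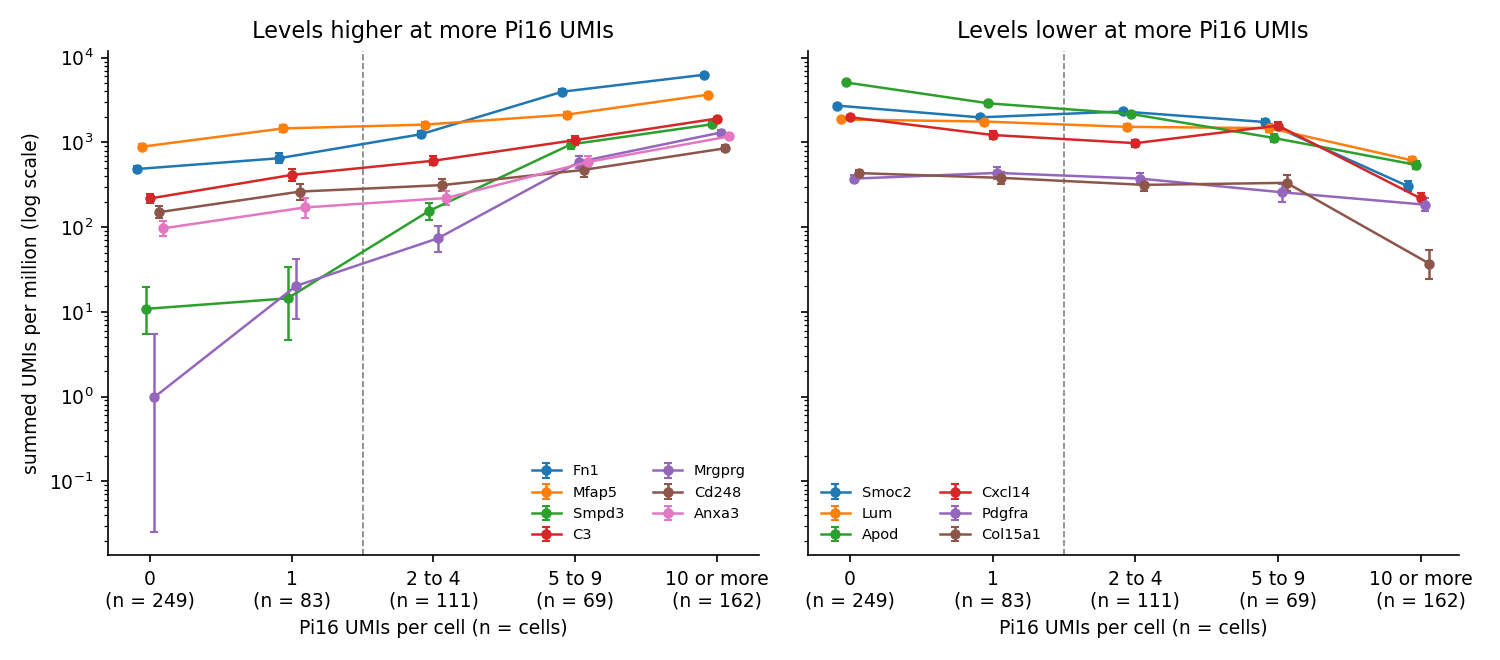
Summed level (CPM, log axis) of 7 genes (left) and 6 genes (right) in uninjured cells with 0, 1, 2 to 4, 5 to 9 and 10 or more Pi16 UMIs; bars are 95% counting intervals and the dashed line is the threshold of the rule. Smpd3 and Mrgprg climb from 156 and 73.6 CPM at 2 to 4 Pi16 UMIs to over 1300 CPM at 10 or more, while Col15a1 stands at 37.1 CPM in the highest band.

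The opposite order held for genes of the interstitial program, and mostly in the highest band alone. Smoc2, a matricellular calcium-binding protein, stood at 2718, 1974, 2319, 1738 and 304 CPM over the 5 bands. Col15a1, a basement membrane zone collagen, stood at 434, 382, 315, 333 and 37.1 CPM. The cells with 2 to 9 Pi16 UMIs were therefore near the cells outside the threshold for these genes. Apod, a lipid carrier, stood at 5101, 2893, 2167, 1129 and 543 CPM, lower in each band than in the one before. Pdgfra was at 374, 436, 374, 258 and 184 CPM and Dcn, which the rule required, at 18902, 20187, 20491, 16203 and 11175 CPM. Ly6a ran the other way, from 1224 CPM without Pi16 to 2879.5 CPM in the highest band. The bands were made by a raw count, so a cell with more UMIs in all is more likely to fall in a higher one, and their median depths had no such order.

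Cell by cell the spread within the 342 cells was wide. Per 10000 UMIs, Pi16 ran from 2.48 to 249 with a median of 24.7, and Dcn from 16.2 to 693 with a median of 109. Fn1 ran from 0 to 263 with a median of 28.8, and Mfap5 from 0 to 132 with a median of 22.8. Smpd3 had a median of 0.746, an upper quartile of 19.3 and a maximum of 89.3. Mrgprg had a median of 0, an upper quartile of 13.4 and a maximum of 79.2. A large part of the cells thus had no Smpd3 UMI, and a large part no Mrgprg UMI. Cells at or above the upper quartile had at least 19.3 per 10000 UMIs of Smpd3 or 13.4 of Mrgprg, and other cells lay between. The highest ratio of variance to mean after thinning was that of haemoglobin Hbb-bs (566), and Cd74 (36.4), Apod (25.5), Mgp (20.1) and Cxcl14 (16.0) were also among the highest. Cd74 (an antigen presentation gene) had at least 10 UMIs in 3 cells.

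Clustering of all 1176 uninjured Dcn-rich cells without Pecam1 or Ptprc UMIs, with the genes of the rule left out, placed the Pi16-positive cells in several clusters. Cluster 1 held 230 cells, of which 208 (90.4%) were Pi16-positive cells, or 60.8% of all of them. A further 51 lay in cluster 3, 38 in cluster 6, 36 in cluster 5, 6 in cluster 9 and 3 in cluster 8. Clusters 2, 4 and 7 held 0 Pi16-positive cells, and clusters 2 and 4 consisted of cells with at least 2 Tnmd UMIs. The clusters were formed from these same transcripts, so their genes are given as a description and the clusters carry numbers and no names.

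**Figure D2:**
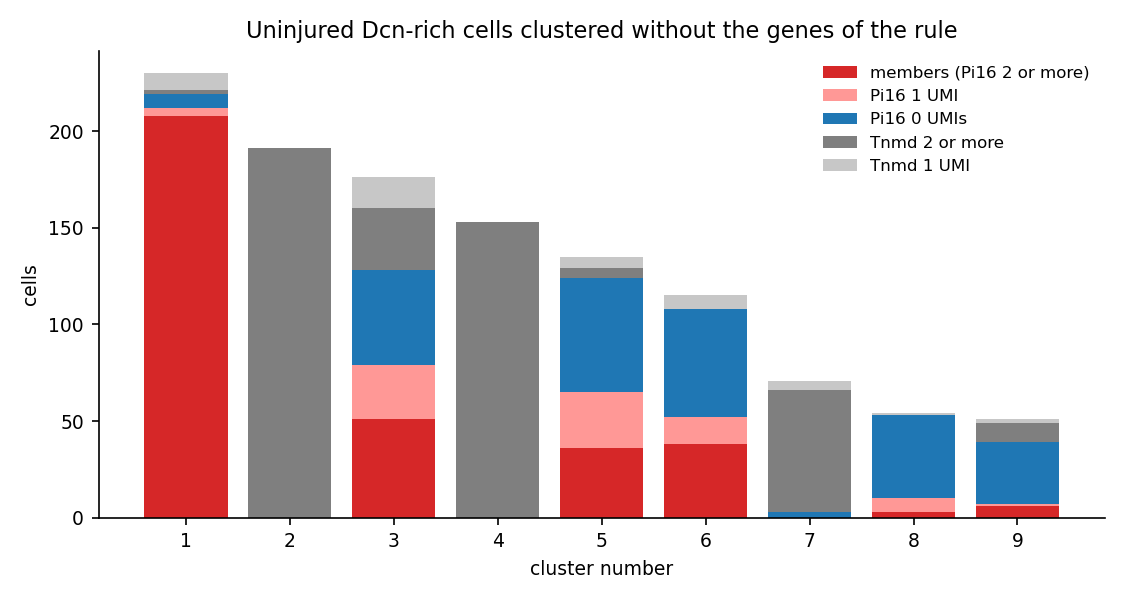
Number of uninjured Dcn-rich cells in each of 9 clusters (made without the genes of the rule), split by Pi16 UMIs for cells without Tnmd and by Tnmd UMIs for the others. Cluster 1 holds 208 Pi16-positive cells among its 230, while clusters 3, 5 and 6 mix Pi16-positive and Pi16-zero cells.

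The Pi16-positive cells of cluster 1 and those elsewhere had different transcripts. Mrgprg had a UMI in 65.9% of the 208 cells in cluster 1, in 1 of the 51 in cluster 3, 0 of the 36 in cluster 5 and 3 of the 38 in cluster 6. Smpd3 had a UMI in 76.9% of the cluster 1 cells and stood at 1733 CPM there, against 47.8, 17.8 and 30.3 CPM in the Pi16-positive cells of clusters 3, 5 and 6. Ptx3, a soluble pattern recognition protein, had a UMI in 91 of the cluster 1 cells, and the hydrogen peroxide-producing oxidase gene Duox2 in 52, which were all of the Pi16-positive cells with a Duox2 UMI. Dpp4 stood at 149, 15.9, 11.9 and 6.06 CPM in clusters 1, 3, 5 and 6, and Fn1 at 6779, 1119, 546 and 370 CPM. Pi16 itself, which the clustering did not use, was at 5157 CPM in cluster 1 and at 888, 748 and 1048 CPM in the Pi16-positive cells of clusters 3, 5 and 6.

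The Pi16-positive cells of clusters 5 and 6 carried the interstitial genes in different combinations. Those of cluster 3 had Apod, but no more Col15a1 than those of cluster 1. Those of cluster 6 had 4325 CPM of the chemokine Cxcl14, 4482 of Smoc2 and 818 of Col15a1. Cluster 1 cells had 28.1, 163 and 23.2 CPM of the same genes. Those of cluster 5 had 3658 CPM of Smoc2 and 487 of Col15a1 with 422 CPM of Cxcl14, and those of cluster 3 had 3354 CPM of Apod and 1267 of C3 with 19.9 CPM of Col15a1. Ly6a was present in all 4, at 2694, 3522, 1574 and 1557 CPM in clusters 1, 3, 5 and 6, and Mfap5 likewise, at 3496, 1303, 2197 and 1666 CPM. In cluster 1 Smpd3, Mrgprg and Dpp4 had a UMI in 76.9%, 65.9% and 39.4% of the Pi16-positive cells, while those of clusters 3, 5 and 6 had Cxcl14, Smoc2 or Apod at high levels. Haemoglobin genes were also among the highest ratios of cluster 6 over the other clusters (Hbb-bs 29.9-fold over all its cells). Hbb-bs stood at 16639 CPM in its Pi16-positive cells, in 18 of 38 cells, and at 224 CPM in those of cluster 1, and its part in the clustering was not tested.

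Compared with the 249 Pi16-zero cells of the same library, the Pi16-positive cells had far more of a short list of enzymes, receptors and secreted proteins. Mrgprg stood at 769 against 0.987 CPM, a ratio of 779 (140 to 30805) that rests on 1 UMI in the Pi16-zero cells, and was spread over 143 Pi16-positive cells. Smpd3 stood at 1022 against 10.9 CPM, 94.2-fold higher (52.5 to 189). Among 5641 genes with at least 50 UMIs in the pair of groups, 258 (4.57%) were at least 2-fold higher and 298 (5.28%) at least 2-fold lower. The median log2 ratio was -0.05. The 2 groups were set by Pi16, so these differences describe the choice and carry no test, and nothing is read from the share of genes called.

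Among the lipid and oxidase enzymes, Daglb, a diacylglycerol lipase that makes an endocannabinoid, stood at 651 against 15.8 CPM (ratio 41.2, 25.2 to 72.4) and was found in 178 Pi16-positive cells. Ltc4s, the leukotriene C4 synthase, stood at 61.8 against 0.987 CPM in 42 cells (ratio 62.6, 11.0 to 2502, on 1 UMI). Duox2 stood at 62.5 CPM in 52 cells against 0 in the Pi16-zero cells, at least 21.1-fold higher with 3 UMIs as the floor for the group. Its maturation factor Duoxa2 stood at 39.6 CPM in 27 cells against 0, at least 13.4-fold higher. Cmah, which hydroxylates sialic acid, stood at 62.5 against 0.987 CPM in 68 cells, likewise on 1 UMI in the Pi16-zero cells. The 2 oxidase partners were thus each found in a minority of the cells and in none of the 249 Pi16-zero cells.

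Among secreted and other proteins, Ptx3 stood at 314 against 2.96 CPM (ratio 106, 36.1 to 516) in 94 cells, and Col6a5, a collagen VI chain, at 189 against 2.96 CPM (ratio 63.8, 21.6 to 311). Aif1l, an actin-binding protein, stood at 126 against 4.93 CPM in 116 cells. These genes were spread over many cells. Cd74 and Ccl5, which also ranked among the highest ratios, were not. Cd74 lay in 7 cells, the richest of which held 40.8% of its UMIs, and all 90 UMIs of the chemokine gene Ccl5 lay in 1 barcode. The summed level of 10 leukocyte genes was 438 CPM in the Pi16-positive and 61.2 CPM in the Pi16-zero cells. Cd74 is 1 of the 10 and gave 267 and 0.987 CPM of these sums, and the other measured gene of the list, Lyz2, stood at 76.4 and 39.5 CPM. The part of leukocyte RNA in these 2 ratios was not tested.

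Lower in the Pi16-positive cells were transcripts of small subsets of the Pi16-zero cells. The Wnt-binding Sfrp5 was 17.9-fold lower (12.0 to 27.8) and was found in 26 Pi16-zero cells. The Wnt ligand gene Wnt6 was 41.2-fold lower (10.9 to 348, 28 cells) and the acute phase gene Saa1 95.2-fold lower (25.8 to 794, 18 cells). The G-protein regulators Rgs16 and Rgs2 were 70.3-fold (19.0 to 589, 26 cells) and 23.6-fold (28 cells) lower, and the adhesion gene Tenm2 was 83.8-fold lower on 1 UMI (14.5 to 3366, 29 cells). Sbspon (48 cells) was 17.2-fold and Dlk1, a Notch-related inhibitor of adipogenesis (22 cells), 29.8-fold lower. Dleu7, with 71.0 CPM in 26 Pi16-zero cells and 0 in the Pi16-positive cells, was at least 34.1-fold lower. The connexin genes Gjb2 (35.0-fold lower, 13 cells) and Gjb6 (at least 32.7-fold lower, 7 cells) and Coch (at least 33.6-fold lower, 10 cells) came from a few Pi16-zero cells. For Coch 1 barcode held 64.8% of the UMIs, and without it the ratio was at most 0.0815. Summed markers of the nerve sheath were also unequal, with perineurial genes at 122 against 402 CPM and glial genes at 335 against 924 CPM, and their part in these ratios was not tested.

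Of 30 genes listed for adventitial (Pi16- and Dpp4-marked) fibroblasts, 27 of 30 measured were at least 2-fold higher in the Pi16-positive than in the Pi16-zero cells and 0 were lower (median log2 ratio 2.08). Over all 5641 genes 4.57% were higher and 5.28% lower. The list holds marker genes of these cells, Smpd3, Mrgprg and Dpp4 among them, and was chosen with earlier results of these data known. The count therefore describes the choice and is not independent evidence. Has1 (1.67-fold), Igfbp6 (1.52-fold) and Tppp3 (1.07-fold) were within 2-fold. Of the marker genes, Cd248 stood at 605 against 150 CPM (4.03-fold), Mfap5 at 2707 against 889 (3.04-fold) and Dpp4 at 91.0 against 27.6 (3.29-fold). Fn1 stood at 4193 against 485 CPM, 8.64-fold higher (7.88 to 9.49). Among surface proteins, Cd55, a complement decay-accelerating factor, was 7.35-fold and Ackr3, a scavenging receptor for Cxcl12, 5.97-fold higher. Among ligands and signalling genes, Sema3c was 6.31-fold, the Wnt ligand gene Wnt2 14.2-fold and the Wnt modulator Dact2 14.8-fold higher, and Anxa3, a membrane-binding annexin, was 7.79-fold higher. Over the alternative settings the median of the list ran from 1.89 to 2.35.

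Of 26 genes listed for endomysial (Col15a1-marked) fibroblasts, 8 of 26 measured were lower by 2-fold or more and 0 higher (median log2 ratio -0.57). Over all 5641 genes 5.28% were lower and 4.57% higher. Apod stood at 1187 against 5101 CPM, 4.30-fold lower, Cxcl14 was 2.76-fold, Col15a1 2.37-fold and Smoc2 2.21-fold lower. Crispld2 (3.31-fold), G0s2, an inhibitor of lipolysis (2.41-fold), Enpp2, the enzyme autotaxin that makes lysophosphatidic acid (2.40-fold), and Sparcl1 (2.04-fold) were the other 4. Against 126 Pi16-zero cells with a Pdgfra UMI and without tendon genes, the median was -1.02. Of 13 general progenitor genes, 4 of 12 measured were higher (Ly6a 2.07-fold, Cd34 2.37-fold, Dpt 2.98-fold, Clec3b 2.63-fold) and 0 lower. Pdgfra stood at 260 against 374 CPM, 1.44-fold lower and within 2-fold.

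Matrix genes are given by class, beside shares of 4.57% higher and 5.28% lower over all 5641 genes. No direction is read from the few collagens called. Of 17 fibrillar and other collagens 1 was higher (Col14a1, 2.86-fold) and 2 lower (Col15a1, and Col18a1 4.68-fold). The median was 0.12, and Col1a1 was level at 2996 against 2806 CPM. Of 20 elastic fibre and microfibril genes, 7 of 18 measured were higher and 0 lower: elastin Eln 2.24-fold, fibrillin Fbn1 3.60-fold, Mfap5, Emilin2 8.25-fold, Ltbp1 2.44-fold, and the cross-linking enzymes Loxl1 3.25-fold and Loxl2 2.65-fold. Of 16 proteoglycan and hyaluronan genes, 3 of 15 measured were higher (Aspn 2.77-fold, Ugdh 2.97-fold, Tnfaip6 7.74-fold) and 1 was lower (Fmod, 2.89-fold). Of 17 peptidases and inhibitors 6 were higher and 0 lower, among them Mmp14 2.1-fold, Adamts5 2.47-fold, Pamr1 4.71-fold and the procollagen peptidase enhancer Pcolce2 2.87-fold. Postn (periostin) stood at 1098 against 148 CPM.

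Signalling genes had no common direction, and their counts stand beside the same shares of 4.57% higher and 5.28% lower over all genes. Of 20 Wnt pathway genes, 3 of 14 measured were higher (Wnt2, Wnt11 2.16-fold, Dact2) and 5 lower (Sfrp1 2.12-fold, Sfrp5, Dkk3 5.76-fold, Dact3 2.65-fold, and the receptor-stabilising ligand Rspo3 6.27-fold). Of 20 chemokine, cytokine and receptor genes, 2 of 14 measured were higher (Il6 4.73-fold, Ackr3) and 3 lower (Cxcl14, Cxcl16 2.04-fold, Lifr 2.84-fold). Of 11 complement genes, 2 of 10 measured were higher, C3 at 1324 against 218 CPM (6.07-fold) and Cd55, while Cd59a, an inhibitor of the membrane attack complex, was 4.04-fold lower. Of 21 BMP and TGF-beta genes, 3 of 17 measured were higher (Bmp1 2.60-fold, Fstl1 3.61-fold, Tgfbr2 2.91-fold) and 0 lower. Among retinoid genes Aldh1a3 was 10.2-fold higher and Aldh1a1 3.17-fold, Rdh10 2.18-fold and Stra6 17.0-fold lower, so 2 enzymes for the same oxidation had opposite directions.

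Part of the immediate early and heat shock genes, which respond to dissociation and other stress, stood lower in the Pi16-positive cells. Their counts stand beside shares of 4.57% higher and 5.28% lower over all 5641 genes. Of 16 immediate early genes 9 were lower by 2-fold or more and 0 higher (median -1.04). Fos stood at 1584 against 3634 CPM (2.29-fold lower), Junb was 2.68-fold, Nr4a1 3.42-fold and Ier3 3.45-fold lower. Of 11 heat shock genes 5 were lower, 0 higher and 6 within 2-fold, with Hspa1a at 121 against 554 CPM (4.58-fold lower) and Dnajb1 4.12-fold lower. Over the bands of Pi16 UMIs, Fos stood at 3634 CPM without Pi16 and between 1394 and 2329 CPM in the 4 bands with it. Summed muscle fibre genes were 680 CPM in the Pi16-positive and 1171 CPM in the Pi16-zero cells, mural genes 167 and 308, and haemoglobin and other erythroid genes 4450 and 26250, and their part in these ratios was not tested. Without the barcodes over 5% haemoglobin UMIs (1 Pi16-positive and 5 Pi16-zero cells) the median log2 ratio of the erythroid genes went from -2.62 to 0.48.

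**Figure D3:**
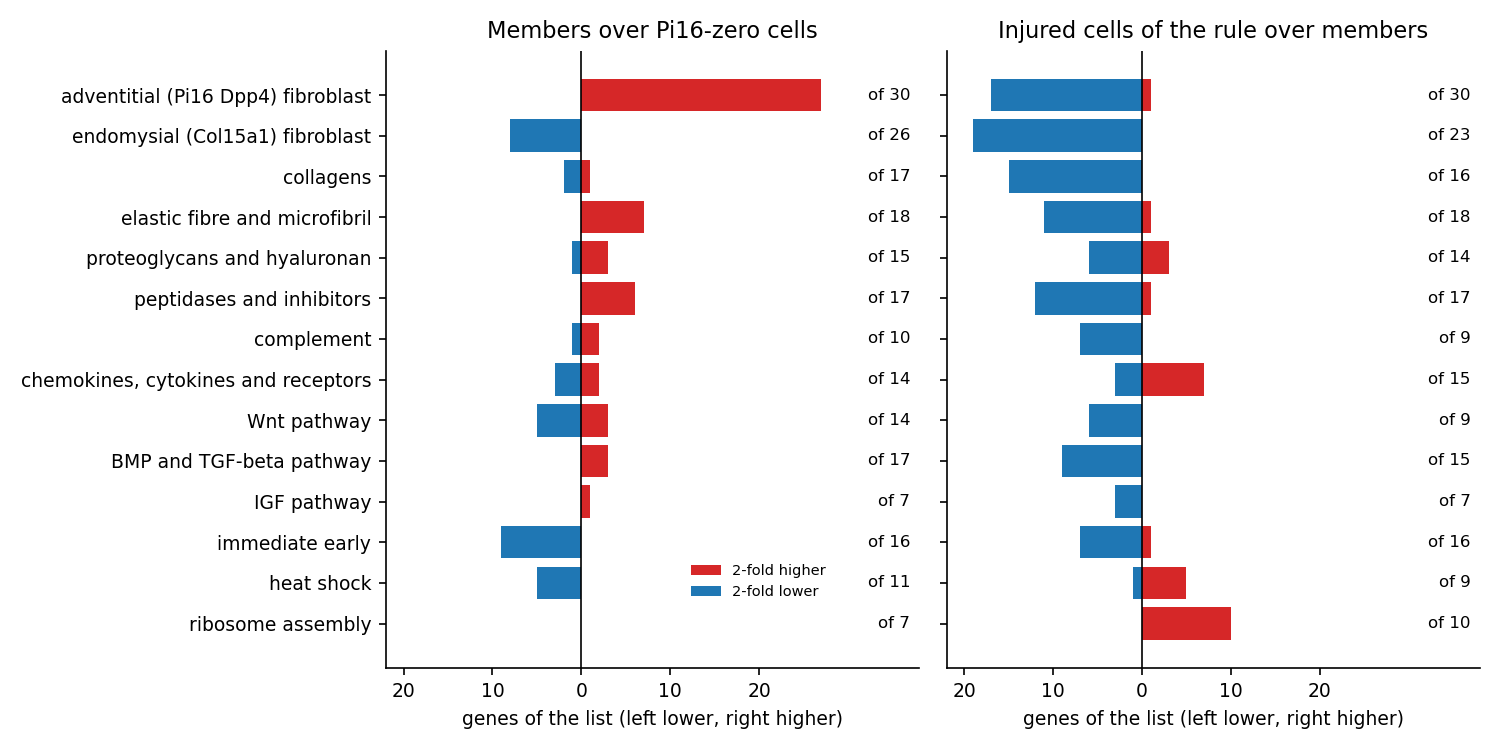
Number of genes in 14 lists that were at least 2-fold higher (right, red) or lower (left, blue), with the number measured at the edge, in uninjured Pi16-positive over Pi16-zero cells and in injured cells of the same rule over uninjured Pi16-positive cells. The adventitial list has 27 of 30 genes higher in the first comparison and 17 of 30 lower in the second.

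Against the tendon cells of the same library, the Pi16-positive cells lacked tendon transcripts by wide margins and had more of the progenitor and chemokine genes. The tendon cells were 456 barcodes with at least 5 Dcn and 2 Tnmd UMIs and none of Pecam1 or Ptprc, with a median of 4490.5 UMIs. Fmod, a collagen-binding proteoglycan of tendon, stood at 19.4 CPM in the Pi16-positive and 9701 CPM in the tendon cells, 499-fold lower (345 to 751). Kera was 753-fold, the Wnt inhibitor gene Wif1 638-fold (176 to 5269), Chad 428-fold, the tendon transcription factor gene Scx 403-fold (111 to 3329.9), Cilp2 368-fold, Tnc 253-fold (69.8 to 2091) and Thbs4 75.2-fold lower, and Col22a1 and Col11a2 at least 140-fold and 100-fold lower. All 11 tendon genes listed were at least 2-fold lower. The 2 groups were set apart by Tnmd, so the lower tendon genes describe the choice and carry no test. Over 6898 genes tested, 618 (8.96%) were higher and 451 (6.54%) lower, with a median log2 ratio of 0.08.

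Genes higher than in tendon cells included enzymes, secreted proteins and chemokines. This comparison and the one with Pi16-zero cells share the Pi16-positive cells, so their ratios are not independent of each other. Smpd3 was 148-fold (91.1 to 260), Ptx3 182-fold, Mrgprg 89.3-fold, Daglb 35.2-fold and Cmah at least 48.4-fold higher. Tnfaip2 (216-fold, 38.1 to 8603), Inmt, an amine methyltransferase (187-fold, 32.9 to 7456), and the cytokine gene Il18 (173-fold, 30.3 to 6882) each rested on 1 UMI in the tendon cells. They, Gas7 (74.4-fold) and the fibulin gene Efemp1 (56.3-fold) were also among the 12 highest. Ccl11 (eotaxin, which attracts eosinophils) stood at 1347 against 35.7 CPM, 37.7-fold higher (30.3 to 47.5). Of the chemokine list 11 of 15 measured genes were higher and 1 lower (median 1.89), among them Cxcl1 8.76-fold and Ccl7 10.2-fold. Of the endomysial list 14 of 25 measured were higher and 1 lower (median 1.44). Col1a1 was 5.60-fold lower and Col3a1 3.30-fold higher than in tendon cells. The adventitial list had 27 of 30 genes higher (median 2.93), and Pdgfra was 8.29-fold and Cd248 21.3-fold higher.

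In the injured library the same rule found fewer cells, and those cells had far less of some transcripts of the uninjured cells and near-equal levels of others. The rule found 40 cells among 4421 filtered barcodes, 0.905% (0.647 to 1.23%) against 6.35% in the uninjured library. Of cells that passed the Dcn, Tnmd, Pecam1 and Ptprc criteria, 10.8% (7.86 to 14.5%) of 369 had at least 2 Pi16 UMIs in the injured and 50.7% (46.9 to 54.6%) of 674 in the uninjured library. The 40 injured cells held more UMIs each, with a median of 11493.5. With every barcode thinned to 1500 UMIs before the rule was applied, 12 injured cells (0.271%, 0.14 to 0.474%) and 259 uninjured cells (4.81%) met it. All UMI criteria were read from thinned counts, and 233 injured and 751 uninjured cells passed those other than Pi16. The cells of the rule were 5.15% and 34.5% of these. These shares come from 1 library each, a lower share cannot be told apart from more cells of other types in the injured muscle, and the intervals cover counting error only.

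The cells of the rule in injured muscle lacked Mrgprg and almost lacked Smpd3. Mrgprg had 0 UMIs in 40 cells, where 3 counts of 40 set an upper limit of 7.5% of cells with a UMI, and was at least 134-fold lower than in the uninjured Pi16-positive cells. Smpd3 had 3 UMIs in 3 cells, 5.74 against 1022 CPM, 178-fold lower (60.8 to 864). Daglb stood at 15.3 against 651 CPM (42.5-fold lower), and Col6a5 was at least 32.9-fold, Spon2 at least 19.3-fold, Pdgfrl at least 15.1-fold and Wfdc1 at least 13.1-fold lower. Postn stood at 59.3 against 1098 CPM, 18.5-fold lower (13.0 to 27.3), and Hmcn2, a large basement membrane protein gene, was 37.9-fold lower (10.4 to 315) and the imprinted RNA gene H19 70.0-fold lower on 1 UMI (12.4 to 2779.6). Cd74 (46.6-fold lower) rested on 7 uninjured cells. Dpp4 remained within 2-fold (51.7 against 91.0 CPM, 1.76-fold lower), and Ly6c1 (1.07-fold lower), Wnt2 (97.6 against 97.9 CPM), Ly6a (1.03-fold higher) and Pdgfra (1.10-fold lower) were nearly level.

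Higher in the injured cells were chemokines, an interleukin receptor and secreted joint and matrix proteins. Prg4 (lubricin) stood at 6132 against 61.1 CPM, 100-fold higher (81.2 to 125), in 37 of 40 cells. Timp1, an inhibitor of metalloproteinases, stood at 1486 against 34.7 CPM (42.8-fold), also in 37 cells. The monocyte attractant gene Ccl2 stood at 1499 against 70.1 CPM (21.4-fold, 24 cells), and Cxcl2, which attracts neutrophils, at 404 against 22.2 CPM (18.2-fold, 36 cells). These 4 genes were found in most of the injured cells. Cxcl5 stood at 846 CPM against 0, at least 406-fold higher, but in 13 cells of which the richest held 54.5% of its UMIs, and at least 191-fold without that barcode. Il1rl1, the receptor for interleukin 33, was 284-fold higher on 1 UMI in the uninjured cells (49.8 to 11322, 8 cells). Cxcl13 was 239.8-fold higher (7 cells) or 132-fold without its richest barcode, Lcn2 97.9-fold (8 cells) or 62.4-fold without it, and Dmkn and the DNA helicase gene Hells 22.3-fold and 25.9-fold. Ccl6 was 39.1-fold higher, or 11.8-fold without 1 barcode that held 70.6% of its UMIs, and Cxcl3 at least 48.7-fold, or at least 9.49-fold without 1 barcode with 81.1%.

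Over 4696 genes tested, 501 (10.7%) were at least 2-fold higher and 857 (18.2%) at least 2-fold lower in the injured cells, with a median log2 ratio of -0.06. When totals left out ribosomal protein, mitochondrial and haemoglobin genes, the median moved by 0.20 and the split became 742 higher and 679 lower, so the balance of directions depends on the scaling. Of the adventitial list 1 gene was higher (Has1, a hyaluronan synthase, 3.44-fold), 17 of 30 were lower and 12 within 2-fold (median -1.20). Cd248 was 2.24-fold, Fn1 5.29-fold, Igfbp6 5.62-fold and Clec3b 6.87-fold lower. Of the endomysial list 19 of 23 measured were lower and 0 higher (median -1.90). In barcodes of similar depth (6 injured and 170 uninjured cells) the adventitial median was -0.30 and the endomysial median -0.65, and thinned to 1500 UMIs the endomysial median was -1.20.

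Nearly all collagens and part of the elastic fibre genes were lower in the injured cells. The counts by list stand beside shares of 10.7% higher and 18.2% lower over all 4696 genes. Of 16 collagens measured 15 were lower and 0 higher (median -1.83), with Col6a1 10.9-fold, Col6a2 10.2-fold, Col15a1 12.0-fold and Col1a1 3.87-fold lower, and Col8a1 within 2-fold. Of 18 elastic fibre genes 11 were lower and 6 within 2-fold, with Eln at 30.6 against 464 CPM (15.1-fold lower) and Mfap4 17.8-fold lower, and 1 was higher, the cross-linking enzyme Lox (2.93-fold). Of 17 peptidases and inhibitors 12 were lower and 1 higher, and of 9 complement genes 7 were lower and 0 higher (median -1.41). Of 15 chemokine and cytokine genes 7 were higher, including Cxcl1 7.70-fold, Ccl7 9.54-fold and Csf1 2.25-fold, and 3 lower, Ccl11 4.26-fold, Ackr3 3.30-fold and Il6 2.44-fold. All 10 measured genes of ribosome assembly were higher (median 1.97), with nucleolin Ncl 5.31-fold and nucleophosmin Npm1 5.08-fold. In sum these genes stood at 3569 CPM in the injured and 768 CPM in the uninjured cells of the rule. They were also higher in injured than uninjured Pi16-zero cells (5258 against 804 CPM) and endothelial cells (2883 against 895 CPM). The rise was therefore not particular to the cells of the rule. Of 9 heat shock genes 5 were higher, led by the mitochondrial chaperone gene Hspd1 (6.20-fold), and 1 lower, but their median of 1.5 became -0.049 in barcodes of similar depth. There the medians were -1.41 for collagens, -0.54 for elastic fibre genes, -0.42 for peptidases, -0.70 for complement and 0.34 for chemokines, with 6 injured cells.

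Markers of other cell classes also moved between the 2 libraries. Of 5 measured leukocyte genes 4 were at least 2-fold higher in the injured cells (Lyz2 348 against 76.4 CPM, Tyrobp 88.1 against 13.2, Fcer1g 67.0 against 11.8, Cd52 45.9 against 19.4), and Cd74 was lower. The 10 leukocyte genes summed to 634 CPM in the injured and 438 CPM in the uninjured cells, of which Cd74 gave 5.74 and 267 CPM, and C1qa was at 0 in the injured ones. Erythroid genes summed to 10376 and 4450 CPM, but their median log2 ratio was -2.87 without the barcodes over 5% haemoglobin UMIs (1 in each group) and -1.53 at similar depth. The other sums were muscle fibre genes at 59.3 and 680 CPM, glial genes at 5.74 and 335 CPM, and cell cycle genes at 540 and 77.8 CPM. Their part in the differences above was not tested. The median depth of the injured cells was also 11493.5 against 4025 UMIs.

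Smpd3 and Mrgprg were also lower when Pi16 was not used to pick cells, in a set that contains the cells compared above. Over all cells that passed the Dcn, Tnmd, Pecam1 and Ptprc criteria (369 injured and 674 uninjured), Mrgprg was at least 756-fold, Smpd3 432-fold, Col6a6 309-fold (54.7 to 12291.5, on 1 UMI), Col6a5 at least 191-fold and Duox2 at least 61.0-fold lower in the injured library. Cxcl5 was at least 1149-fold, Il1rl1 1241-fold (223 to 49049, on 1 UMI), Prg4 46.7-fold, Ccl2 46.8-fold and Timp1 50.3-fold higher. The uninjured Pi16-positive cells are part of this set. They held 1107 of its 1115 uninjured Mrgprg UMIs, 1472 of 1488 for Smpd3, 272 of 281 for Col6a5 and all 90 for Duox2. The lower levels of these 4 genes therefore rest largely on the same uninjured UMIs as before and are not a second observation. Of 9191 genes 1374 (14.9%) were higher and 2209 (24%) lower, or 1836 and 1726 with totals that left out ribosomal protein, mitochondrial and haemoglobin genes, a scaling that moved the median by 0.24 from -0.17. Of the adventitial list 24 of 30 were lower and 1 higher (median -2.49, and -1.18 in cells of similar depth).

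Within the injured library, cells with at least 2 Pi16 UMIs also had more of the adventitial genes than Pi16-zero cells. The injured library was not used to choose the 342 cells, but its cells were split by the same Pi16 rule. The list was chosen with earlier results of these data known, so the contrast is not independent evidence. The 40 cells were set against 295 Pi16-zero cells with a median of 13485 UMIs, a comparison added after the data had been seen. Of 7115 genes 361 (5.07%) were higher by 2-fold or more and 451 (6.34%) lower. The median log2 ratio was -0.05. Of 24 adventitial genes measured 21 were higher and 0 lower (median 1.74). Cd248 stood at 270 against 34.0 CPM (7.93-fold), Dpp4 at 51.7 against 6.63 (7.80-fold), Cd55 was 10.4-fold, Clec3b 9.56-fold, Ly6c1 6.89-fold, Ackr3 4.91-fold, Wnt2 3.11-fold, Mfap5 2.79-fold and Fn1 2.49-fold higher. Has1, Ugdh (1.55-fold) and Axl (1.37-fold) were within 2-fold. In cells of similar depth, 6 of them with Pi16, the log2 ratio of Fn1 turned to -0.92 and the median of the list was 1.34.

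**Figure D4:**
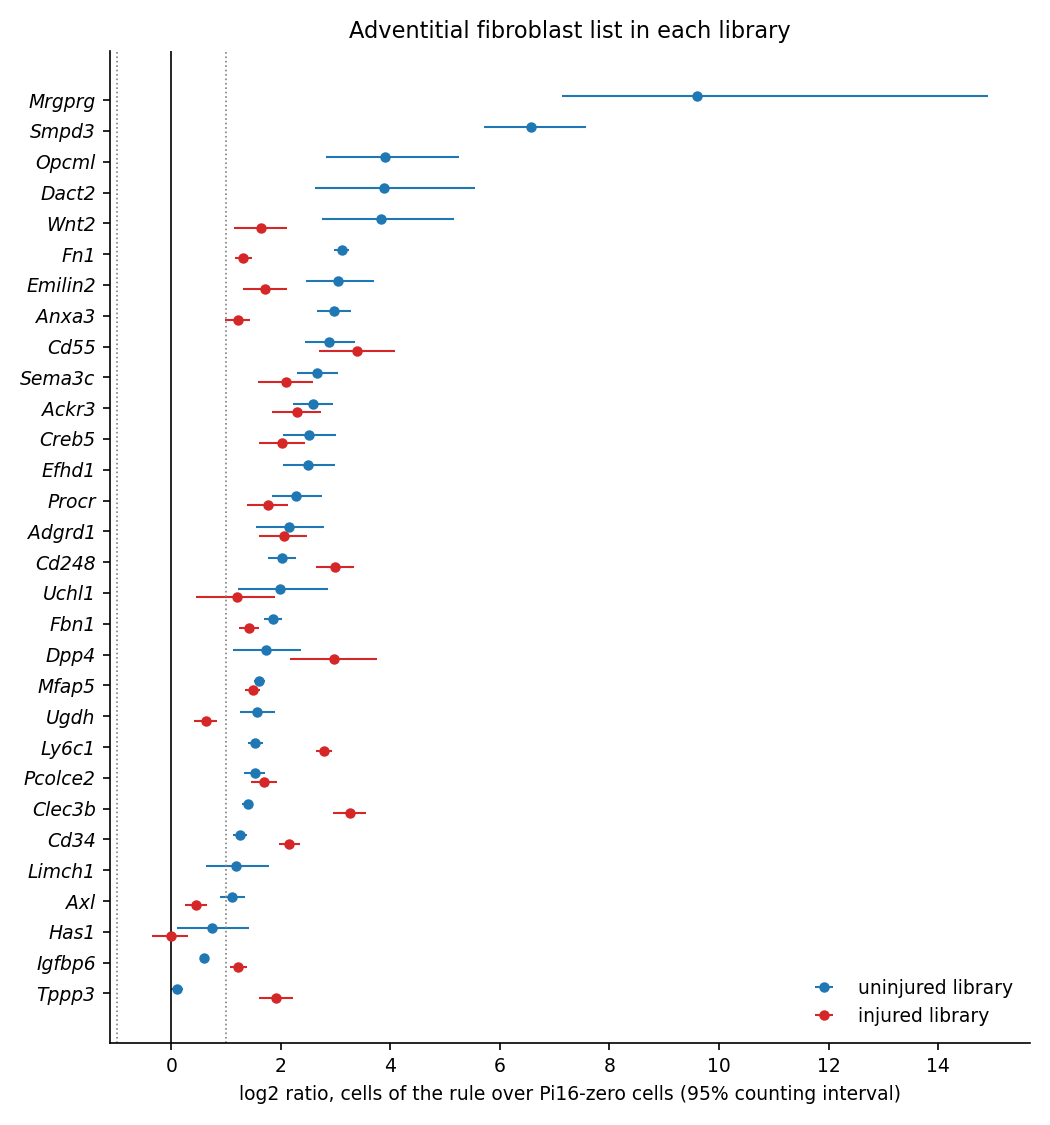
Log2 ratio, with 95% counting interval, of the 30 adventitial list genes in cells of the rule over Pi16-zero cells in the uninjured (blue) and injured (red) library; dotted lines mark 2-fold. In the uninjured library 27 of 30 genes and in the injured library 21 of 24 measured genes lie at or above 2-fold, and Mrgprg, Smpd3, Opcml, Dact2, Efhd1 and Limch1, under 50 UMIs in the injured groups, have a point in the uninjured library alone.

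Some genes with a high ratio in uninjured muscle stood near equal in injured cells with and without Pi16, a difference between the libraries that was not tested. Daglb stood at 15.3 against 14.6 CPM (ratio 1.05, 0.435 to 2.19) and Ptx3 at 59.3 against 61.9 CPM (ratio 0.959, 0.64 to 1.39). Complement genes were higher in 7 of 8 measured (median 1.34), with C3 at 310.1 against 51.9 CPM (5.97-fold), close to the 6.07-fold in uninjured cells. Igfbp5, an IGF-binding protein, was 4.51-fold higher. Chemokines were lower in 6 of 17 measured and higher in 2, with Il6 8.26-fold, Ccl2 2.39-fold, Il1rl1 2.33-fold and Cxcl2 2.06-fold lower, and the metalloproteinase gene Mmp3 was 30.9-fold lower. Immediate early genes were higher in 1 of 16 and lower in 0 (median 0.03), unlike in the uninjured library, although the difference between the libraries was not tested. Summed tendon genes stood at 448 CPM in the injured cells of the rule and 1996 CPM in the injured Pi16-zero cells, and their part in these ratios was not tested.

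Of the 5105 genes measured in both libraries, 187 were at least 2-fold higher in the uninjured Pi16-positive over Pi16-zero cells and 311 in the same contrast of injured cells. The 86 genes called in both were 46.0% of the first set and 27.7% of the second, and 6 genes higher in uninjured cells were lower in injured cells. For lower genes, 194 and 182 were called, the 60 called in both were 30.9% and 33.0% of these, and 5 had the opposite direction. Over all 5641 genes tested in the uninjured contrast, 4.57% were higher and 5.28% lower. Over all 7115 genes of the injured contrast these shares were 5.07% and 6.34%. The 2 contrasts share no cells, but both split cells by Pi16, and the overlap was not tested.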

How the data were processed

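The deposited data were UMI counts per gene and cell barcode for 1 uninjured and 1 injured library, which the authors made with Cell Ranger 2.1.1 on mouse build mm10, per the submitters' processing notes. For the annotation release and the cell-calling cutoff, the sources used here give nothing. The 28692 gene rows were summed to 28625 symbols. No replicate libraries exist, so groups of cells were compared by summed UMIs per 1000000 UMIs with exact conditional binomial 95% intervals, exact Clopper-Pearson intervals (95%) go with shares, and genes with at least 50 UMIs over both groups were called at 2-fold. Intervals and floors (3 UMIs per group) cover counting error only, and UMIs in a few cells can dominate a sum. The cells, the gene lists and the rules were chosen with earlier results of these data known, and no list is independent evidence. Named genes were the markers, the 15 most abundant genes, list genes, and per comparison the 12 genes per direction ranked by the interval bound nearest equal levels, leaving out genes of the rule, mitochondrial, ribosomal protein, sex-linked and unnamed gene models. A few others (Postn, Ptx3 and Daglb in the injured library, and genes of the clusters) were chosen after their values were seen.

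Scrublet's automatic threshold marked 1 barcode per library, so it did not work here and no doublets were removed; leaving out the 249 and 161 highest scores was an alternative. Clusters used 2000 variable genes without the genes of the rule and Xist, 20 principal components, 15 neighbours and Leiden resolution 0.6. Alternatives were other Pi16, Dcn, mitochondrial, UMI and fold limits, cells of similar depth, thinning to 1500 UMIs, per-cell means, other totals, narrower comparison groups and, added after seeing the data, leaving out each gene's richest barcode or haemoglobin-rich barcodes. The ratio calculation was run on simulated sums that held counting error alone, the error that the intervals assume. That run cannot show whether the intervals hold with spread between cells. Python 3.11.15, numpy 2.4.6, pandas 2.3.3, scipy 1.17.1, scanpy 1.11.5, leidenalg 0.10.2 and matplotlib 3.10.9 were used.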

Additional observations from a re-analysis of the deposited data

Results flagged for a closer look

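Cd74 had opposite directions in the same contrast of the 2 libraries. In uninjured muscle its log2 ratio in Pi16-positive over Pi16-zero cells was 8.08, and in injured muscle it was -1.18 with an interval of the ratio from 0.0883 to 1.35. The uninjured UMIs lay in 7 cells and 40.8% of them in 1, the injured cells of the rule held 3 UMIs, and the difference between the libraries was not tested.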

How the results depend on the processing

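The number of Pi16-positive cells was 261 to 425 over the other thresholds and filters. Genes called in the comparisons with Pi16-zero cells, with tendon cells, of injured with uninjured cells of the rule, of all Dcn cells between libraries, and within the injured library were 556, 1069, 1358, 3583 and 812. In cells of similar depth they were 290, 600, 485, 954 and 78, and thinned to 1500 UMIs 275, 564, 476, 1435 and 254. At 3-fold they were 248, 593, 589, 1852 and 285, and with at least 200 UMIs per gene 165, 392, 437, 1780 and 208. With at least 20 UMIs per gene, 1141, 1780, 2536 and 1528 were called in all but the comparison of Dcn cells. With at least 1 Pi16 UMI the third and the fifth called 2165 and 351 genes, and with at least 4 the fifth called 1270. Fewer genes and cells enter several of these by construction, and the cause of other shifts was not tested.

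In cells of similar depth, which leaves 6 injured cells of the rule, some log2 values changed sign. For injured over uninjured cells of the rule these were Apod (0.36), Cd34 (0.29), Podn (0.15), the Wnt list (0.33) and the heat shock list (-0.049). Fn1 within the injured library became -0.92. Erythroid genes were -1.53 for injured over uninjured cells of the rule, 0.86 over Pi16-zero cells, 4.64 over Dcn cells and -6.32 within the injured library. Without haemoglobin-rich barcodes the erythroid list was 0.48 over Pi16-zero cells, -2.87 between cells of the rule and -2.56 within the injured library, and with at least 1 Pi16 UMI it was -0.18 between cells of the rule. Against Pi16-zero cells with Pdgfra and without tendon genes the glial list was 0.64. No paired analysis was possible because each condition has 1 library. Genes under 50 UMIs were not compared, and the injured cells of the rule number 40.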
